A study of Mus musculus with 24 samples.

Results

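The comparison covers 5 of the 24 mouse libraries of the series: all 3 cTag-PAPERCLIP libraries made from brain of PBS-treated Cx3cr1-Cre mice and both libraries made from brain of untreated mice of the same line. They were chosen by their labels, not by any measured value. All 5 came from Cx3cr1-Cre; Ctag-PABP mice, in which Cre made under the Cx3cr1 driver turns on a poly(A)-binding protein fused to GFP; the PBS and the untreated mice carry both alleles alike. Anti-GFP antibodies recovered the mRNA crosslinked to that protein from whole brain. The labels give no age, sex or number of mice, and they do not state how or for how long the tagged mice received PBS, a buffered salt solution used as the vehicle. The 3 other libraries of the line were made after treatment with bacterial lipopolysaccharide (LPS). They entered the fit to estimate the spread between libraries, and also the choice of genes tested and the scaling, but not the contrast. Nothing in the labels says that replicates came from separate mice, so the p-values measure the spread between these libraries, which may be technical.

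Microglia are the resident macrophages of the brain. They carry the fractalkine receptor Cx3cr1, depend on TGF-beta signals for their identity, and respond to injury, infection and handling with rapid changes in gene expression. The Cx3cr1 driver is also active in border macrophages of the brain and in circulating monocytes, and a library of tagged mRNA cannot tell fewer cells of a type from less RNA per cell. PAPERCLIP reads lie at the 3′ ends of mRNA, and the deposited table holds their sum for each gene, so a difference can reflect the amount of mRNA or how much of it was bound.

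Library totals were 275894, 266330 and 337770 counts for PBS replicates 1 to 3, against 154959 and 133456 counts for untreated replicates 1 and 2. The PBS libraries resembled each other, with Pearson correlations of log2 CPM, the count scaled by the library total, between 0.849 and 0.897 over 5603 genes, whereas the untreated pair correlated at 0.681. Untreated replicate 2 stood apart: it correlated at 0.619 to 0.716 with the PBS libraries, against 0.775 to 0.814 for untreated replicate 1. No replicate pair agreed within sampling noise, with a chi-square per degree of freedom of 2.11 to 4.04 between PBS libraries and 6.1 between the untreated ones. File names carry 1 prefix for both untreated libraries, another for PBS replicates 1 and 2 and a further one for PBS replicate 3; the labels do not explain the prefixes. The group and whatever the prefixes stand for cannot be told apart.

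**Figure D1:**
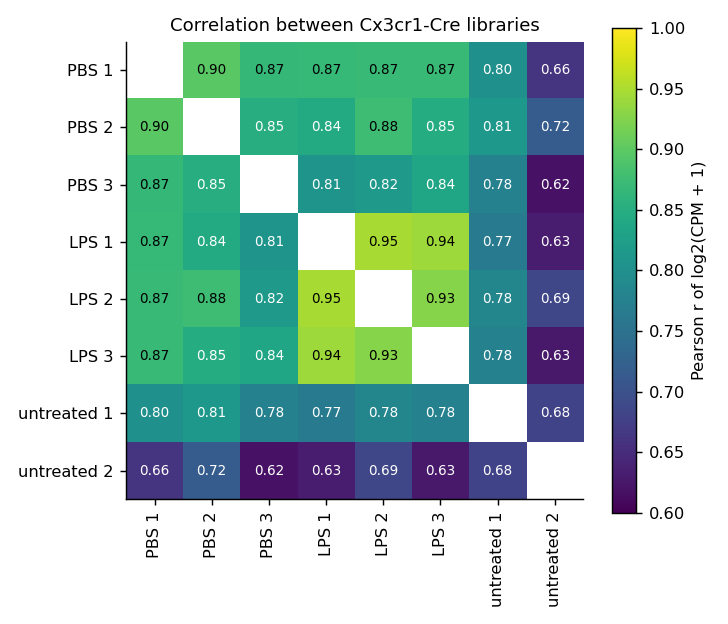
Pearson correlation of log2(CPM + 1) over 5603 genes for every pair of the 8 Cx3cr1-Cre libraries, with PBS first, LPS next and untreated last on both axes. The PBS pairs sit at 0.849 to 0.897 and the untreated pair at 0.681, and the row of untreated replicate 2 is the darkest.

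Marker genes of microglia, checked against the driver line, were abundant in both groups. The 26 microglial identity genes took 11.1%, 13.1% and 9.64% of all counts in the PBS libraries, against 14.4% and 12% in the untreated ones. Cst3 alone held 14283 of 30658 list counts in PBS replicate 1, 19023 of 34889 in replicate 2 and 14016 of 32555 in replicate 3. It held 12309 of 22358 in untreated replicate 1 and 6466 of 16023 in replicate 2. Cst3 is not confined to microglia, with 10601 and 6222 CPM in the tagged astrocyte libraries, so the share follows this gene in large part. Border macrophage genes took 0.22%, 0.222% and 0.174% after PBS, against 0.174% and 0.407% untreated. The 19 monocyte, granulocyte and lymphocyte genes took at most 0.00799% after PBS and at most 0.012% untreated. PBS replicate 3 also held more counts of genes of some other cell types. Pan-neuronal genes took 0.379% of its counts, 0.0805% and 0.0638% in the other PBS libraries, and 0.0658% and 0.0584% in the untreated ones. Hepatocyte genes took 0.319%, compared with 0.0447% to 0.0652% in the other 4 libraries. Vessel, choroid and ependymal genes took 0.0409%, compared with 0.00323% to 0.00974% in the other 4. The source of these counts and their part in the differences were not tested.

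Of 5112 genes with enough counts to test, out of 23871 in the files, 103 passed an adjusted p of 0.05, which is 2.01% of the genes tested. Of these, 28 were higher after PBS (0.548% of genes tested) and 75 were lower (1.47%). In each of the 103 the PBS and untreated values did not overlap; over all genes tested, 18.9% had every PBS value above both untreated values and 16.7% had every PBS value below them. The median log2 change over all genes tested was 0.03. At an unadjusted p under 0.05, 987 of the genes tested passed, or 19.3%. DESeq2 called 234 (4.58%) and limma-voom 74 (1.45%), and the counts of these for gene lists are to be read beside those shares. The number of calls rested on single libraries. It was 3 without PBS replicate 1, 37 without PBS replicate 2 and 12 without PBS replicate 3. It was 495 without untreated replicate 1 and 16 without untreated replicate 2. The LPS libraries also set it, since they entered the spread, the filter and the scaling. Leaving out LPS replicate 1, 2 or 3 gave 32, 41 and 68 calls. The direction of the 103 changes was largely fixed beforehand, since the genes were picked on these same values and their groups did not overlap. Of the 103 genes, 11 passed the threshold without either untreated library in turn, all 11 of them lower after PBS, and none of the 103 changed direction under any of the 18 alternative settings.

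**Figure D2:**
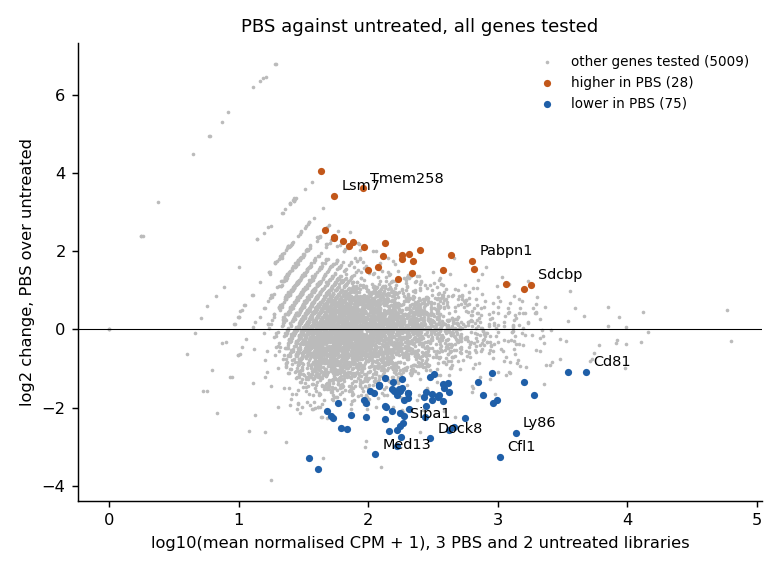
The log2 change of PBS over untreated for 5112 genes, on the y axis, against log10 of the mean normalised CPM plus 1 over the 5 libraries, on the x axis. Orange points are the 28 genes higher after PBS and blue points the 75 lower; Tmem258 stands highest among the labelled genes and Cfl1 and Med13 lowest.

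Med13, a subunit of the kinase module of the Mediator complex that links transcription factors to RNA polymerase II, had, with Dock8, the smallest adjusted p of all genes tested. It held 22.5, 20.1 and 34.3 normalised CPM in the PBS libraries, against 213.6 and 269.7 in the untreated ones. Every PBS value was far below both untreated values, a log2 change of -3.19 (SE 0.36, adjusted p = 0.0022). The LPS libraries held 31.6, 45.8 and 30.6 normalised CPM, near the PBS values, and the 6 tagged libraries of cortical neurons and astrocytes in the series held 7.93 to 27.4 CPM. Med13 passed the threshold in all 18 alternatives, with the adjusted p at most 0.0316. It lies on chromosome 11 (chr11:86267033-86357596 of GRCm38, the build that mm10 names) and overlaps the annotated gene Brip1os.

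Of 18 Mediator subunits tested, Med13 was the 1 called, with none called higher, and the median log2 change of the list was -0.16. Its close relative Med13l had 183.9, 148.9 and 165.0 normalised CPM after PBS, against 66.3 and 111.1 untreated (log2 0.91, adjusted p = 0.162). Med30, a subunit of the Mediator core, had 82.5, 112.7 and 74.7 after PBS, against 169.4 and 269.7 untreated (log2 -1.29, adjusted p = 0.0662). Neither passed the threshold in edgeR, and Med30 passed it in DESeq2 (adjusted p = 0.0223).

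Dock8, an exchange factor that activates the small GTPase Cdc42 in migrating immune cells, was also lower. It held 93.8, 104.6 and 71.6 normalised CPM after PBS, against 405.1 and 825.1 untreated (log2 -2.78, SE 0.33, adjusted p = 0.0022). The untreated libraries lay apart from each other here, and without untreated replicate 2 the change was -2.18. The LPS libraries held 129.5, 140.5 and 127.5. The 6 libraries of cortical neurons and astrocytes held 0 to 2.5 CPM. Of 8 Dock and Elmo genes tested, none other passed and the median was -0.24; Dock10 had 382.7, 326.0 and 361.2 normalised CPM after PBS, against 368.2 and 571.2 untreated. Dock8 lies on chromosome 19 (chr19:24999321-25202432) and overlaps Ndufb4b and predicted genes.

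Tmem258, a small subunit of the oligosaccharyltransferase that attaches sugars to new proteins in the endoplasmic reticulum, had the largest rise among called genes with a mean of at least 50 normalised CPM. It held 127.6, 148.9 and 152.6 normalised CPM after PBS, against 14.7 and 7.93 untreated (log2 3.61, SE 0.55, adjusted p = 0.00765). The untreated values rest on 2 and 1 counts, and the PBS values on 34, 37 and 49 counts. The plain ratio of counts per total was 13.1, with a 95% interval of 4.38 to 64.5 that covers counting error only. The LPS libraries held 103.8, 88.4 and 142.2 normalised CPM, and the 6 cortical libraries held 86.7 to 141.7 CPM, so the untreated microglial libraries were the low ones among all 14 tagged brain libraries. The call was lost without PBS replicate 1 (adjusted p = 0.0536), without untreated replicate 2 (0.0817, with a log2 change of 3.26) and in limma-voom (0.104), and without untreated replicate 1 the log2 change was 4.21. Tmem258 lies at chr19:10204202-10207824 and overlaps Fen1, which had 5, 7 and 1 counts after PBS and 1 and 3 untreated. The other 10 oligosaccharyltransferase genes tested did not pass; Rpn1, a core subunit, had 348.9, 446.7 and 336.3 after PBS, against 545.0 and 476.0 untreated, and the list median was -0.14.

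**Figure D3:**
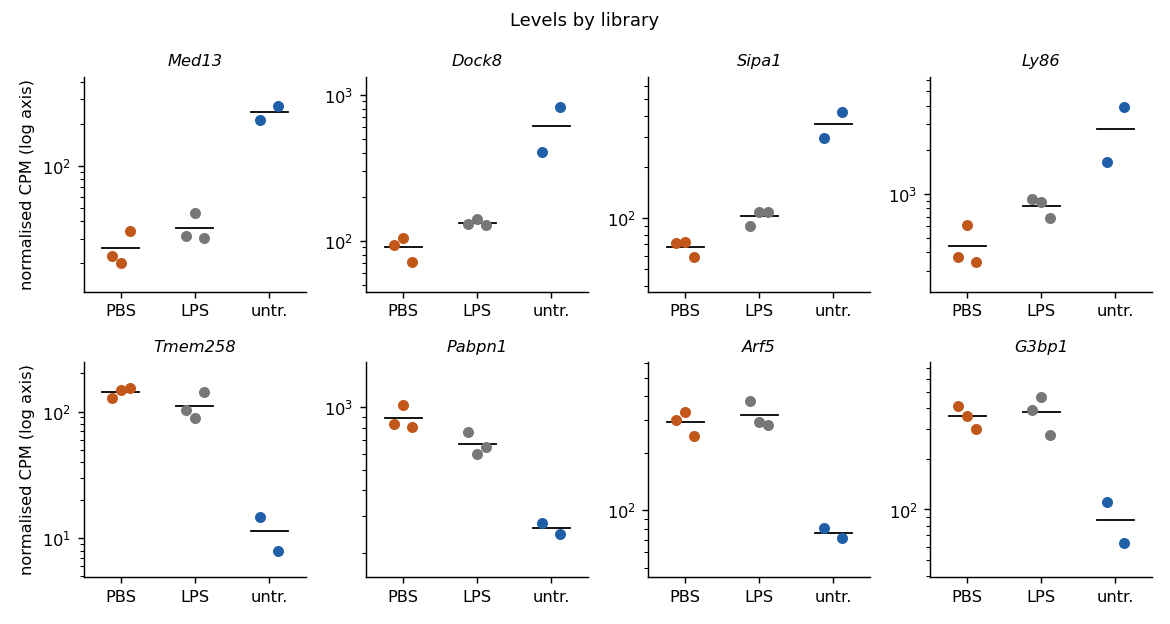
Normalised CPM on a log axis for 8 genes, with 1 point per library, PBS at the left, LPS in the middle and untreated at the right; bars are group means. The top row shows 4 genes lower after PBS, from Med13 to Ly86, and the bottom row 4 genes higher after PBS, from Tmem258 to G3bp1. In each the LPS points lie nearer to PBS than to untreated. All 8 genes were picked among those called between PBS and untreated, so the place of the LPS points cannot be read apart from that choice.

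The promoters of these 3 genes, given with the comparison, are shown for context, since counts per gene do not bear on them. Each is a RefSeq sequence of GRCm38.p6 on the gene's own strand. The windows are chr11:86357547-86357846 (minus strand) for Med13, chr19:24999279-24999578 (plus) for Dock8 and chr19:10203952-10204251 (plus) for Tmem258. Those of Med13 and Tmem258 run from 250 bases before to 50 after the annotated gene start. That of Dock8 begins shortly before the gene start given above, at 24999321, so most of it lies within the annotated gene. Capitals mark GGGCGG on either strand, with overlaps kept.
Med13: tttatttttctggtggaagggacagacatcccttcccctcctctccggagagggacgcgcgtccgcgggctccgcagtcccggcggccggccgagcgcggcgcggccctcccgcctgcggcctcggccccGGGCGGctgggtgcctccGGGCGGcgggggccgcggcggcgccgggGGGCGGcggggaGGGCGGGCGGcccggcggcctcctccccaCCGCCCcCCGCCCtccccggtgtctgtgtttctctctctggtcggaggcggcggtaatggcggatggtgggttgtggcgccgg
Dock8: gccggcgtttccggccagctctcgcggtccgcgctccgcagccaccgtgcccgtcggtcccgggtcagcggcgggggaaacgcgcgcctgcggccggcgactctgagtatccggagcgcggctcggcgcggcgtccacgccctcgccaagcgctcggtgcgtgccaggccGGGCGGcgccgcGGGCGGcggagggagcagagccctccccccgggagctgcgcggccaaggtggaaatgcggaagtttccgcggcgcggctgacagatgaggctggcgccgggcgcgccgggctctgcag
Tmem258: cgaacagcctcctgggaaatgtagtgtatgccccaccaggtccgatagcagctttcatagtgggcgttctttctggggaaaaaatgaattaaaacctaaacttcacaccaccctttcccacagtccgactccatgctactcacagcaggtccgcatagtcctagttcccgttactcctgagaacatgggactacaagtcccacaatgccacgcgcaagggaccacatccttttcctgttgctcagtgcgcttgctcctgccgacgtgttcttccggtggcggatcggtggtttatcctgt
The Med13 promoter holds 7 matches and is 78.3% GC, the Dock8 window holds 2 and is 78% GC, and the Tmem258 promoter holds none and is 52.7% GC. Across the genes with a promoter in the table, GGGCGG occurs in 70.8% of 24 called higher, 73.6% of 53 called lower and 67.7% of 4099 tested. CCAAT occurs in 41.7%, 37.7% and 38.2% of the same sets, TATAAA in 8.33%, 3.77% and 6.81%, and CACGTG in 16.7%, 9.43% and 11.2%. These are descriptions of letters in a window, and none of the 3 promoters holds any of the other 3 motifs.

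Sipa1, which switches off the small GTPase Rap and was singled out after its values were seen, was the other gene called in all 18 alternatives beside Med13 and Dock8. It held 71.3, 72.4 and 59.2 normalised CPM after PBS, against 294.6 and 420.5 untreated (log2 -2.40, SE 0.29, adjusted p = 0.00241). Both untreated values were over 4 times the highest PBS value. Without PBS replicate 1 these 3 genes were the only calls, so every other call was lost in that setting, with adjusted p-values of 0.0536 or more. The genes named by their size of change or by a list include 32 that were called. Of these 32, 30 were lost without PBS replicate 1, 20 without PBS replicate 2 and 25 without PBS replicate 3. Without untreated replicate 1, 3 were lost, and without untreated replicate 2, 28. Without LPS replicate 1, 2 or 3, 19, 15 and 10 were lost. Of all 103 called genes, 16 held in at least 15 of the alternatives and 13 in at most 5.

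Ly86 and Extl3 were 2 further large falls called without either untreated library in turn. Ly86, which partners the Toll-like receptor homologue Cd180 on myeloid cells, held 371.5, 615.8 and 345.6 normalised CPM after PBS, against 1650 and 3903 untreated (log2 -2.65, adjusted p = 0.00493). It was at 0 in all 6 cortical libraries. The fall was -1.89 without untreated replicate 2 (adjusted p = 0.0425). Extl3, a glycosyltransferase of heparan sulfate synthesis, held 45.02, 68.4 and 31.1 after PBS, against 220.9 and 357.0 untreated (log2 -2.60).

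Several large falls lost their call without untreated replicate 2, which leaves 1 untreated library. Cfl1, the actin-severing protein cofilin, held 176.3, 414.5 and 115.2 normalised CPM after PBS, against 1075 and 3395 untreated (log2 -3.26, adjusted p = 0.0146). The change was -2.20 without that library (adjusted p = 0.130) and -3.94 without PBS replicate 2. Atxn2 and Atxn2l encode related RNA-binding proteins, of which Atxn2 is known to bind the cytoplasmic poly(A)-binding protein. Atxn2 held 45.02, 56.3 and 31.1 after PBS, against 103.1 and 595.0 untreated (log2 -2.99, adjusted p = 0.0394). The change was -1.24 without untreated replicate 2 (adjusted p = 0.529) and -3.68 without untreated replicate 1. Atxn2l held 138.8, 169.0 and 115.2 after PBS, against 574.5 and 1111 untreated (log2 -2.58, adjusted p = 0.0312). Without untreated replicate 2 the change was -2.03 (adjusted p = 0.227). For these genes untreated replicate 1 was itself above every PBS value, but by much less than replicate 2.

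Hspa8, the constitutive Hsp70 chaperone, held 45.02, 72.4 and 46.7 normalised CPM after PBS, against 184.1 and 547.4 untreated (log2 -2.74, adjusted p = 0.0105; -1.76 without untreated replicate 2, adjusted p = 0.130). Gnas, the stimulatory G protein alpha subunit, held 135.1, 193.2 and 152.6 after PBS, against 368.2 and 1428 untreated (log2 -2.48, adjusted p = 0.0157). The change was -1.20 without untreated replicate 2 (adjusted p = 0.155) and -3.07 without untreated replicate 1. Gpkow, a splicing factor, had a log2 change of -2.55, and -1.94 without untreated replicate 2 (adjusted p = 0.266). Tomm40, the pore of mitochondrial protein import, had a log2 change of -2.52, and -1.51 without that library (adjusted p = 0.450). Among called genes the RefSeq table lists 12 pseudogene copies named after Rpsa, 2 after Rpl34 and 1 each after M6pr, Slc25a5 and Tma7, and counts of such genes are uncertain where reads could be shared. Hspa8 overlaps 3 small nucleolar RNA genes.

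Among the higher genes, those that handle RNA are given first, a grouping made after the values were seen. Pabpn1, the nuclear poly(A)-binding protein that sets tail length, held 829.2, 1026 and 803.4 normalised CPM after PBS, against 279.9 and 245.9 untreated (log2 1.75, SE 0.28, adjusted p = 0.0123). The untreated libraries agreed closely, and the LPS libraries held 759.9, 596.8 and 648.3. The call held in 16 alternatives and was lost without untreated replicate 2 (log2 1.66, adjusted p = 0.0711). It was the 1 called of 20 tested genes of cleavage, polyadenylation and deadenylation, whose median was 0.32. Papola, the poly(A) polymerase, had 322.7, 358.2 and 302.1 after PBS, against 603.9 and 626.7 untreated (log2 -0.91, adjusted p = 0.125).

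G3bp1, a core protein of stress granules, held 412.7, 362.2 and 302.1 normalised CPM after PBS, against 110.5 and 63.5 untreated (log2 2.03, adjusted p = 0.0228). The change was 1.70 without untreated replicate 2 (adjusted p = 0.155). Lsm7, part of the ring that binds the U6 RNA and decaying mRNA, held 82.5, 72.4 and 96.5 after PBS, against 14.7 and 0 untreated. Its untreated values rest on 2 counts in all, so the plain ratio of 11.6 has a 95% counting interval of 3.10 to 97.9, and the adjusted p of 0.0465 became 0.269 without untreated replicate 2. Nop10, of the box H/ACA ribonucleoprotein, rose by 2.22 on the log2 scale but its untreated values were 73.6 and 7.93, and the change was 4.66 without untreated replicate 1 and 1.40 without untreated replicate 2 (adjusted p = 0.256). Pqbp1, which takes part in splicing, and the noncoding RNA Snhg8 rose by 2.33 and 2.25. Without untreated replicate 1 the adjusted p was 0.0860 for Pqbp1 and 0.0792 for Snhg8. Without untreated replicate 2 it was 0.121 and 0.0711, with changes of 3.36 and 3.60. Snhg8 hosts the small nucleolar RNA Snora24.

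The other large rises began with 2 small GTPase genes. Arf5, a GTPase of vesicle budding, held 300.2, 330.0 and 246.0 normalised CPM after PBS, against 81.0 and 71.4 untreated (log2 1.93, SE 0.34, adjusted p = 0.0167). The change was 1.84 without untreated replicate 2 (adjusted p = 0.121). Arl5a, a GTPase of the same superfamily, held 82.5, 64.4 and 90.3 after PBS, against 14.7 and 15.9 untreated (log2 2.36). Sh3bp1, which inactivates small GTPases, held 769.2, 555.4 and 510.7 after PBS, against 235.7 and 87.3 untreated (log2 1.91). The kinase gene Cdk11b rose by 2.23, Fam192a by 2.13 and Acadsb, an enzyme of branched-chain amino acid breakdown, by 2.12. Without untreated replicate 1 the change was 2.89 for Sh3bp1 and 2.74 for Fam192a. Without untreated replicate 2 the adjusted p of Arl5a, Sh3bp1, Cdk11b, Fam192a and Acadsb was 0.155 to 0.256. The changes in that setting were 2.41 for Arl5a, 1.38 for Sh3bp1, 2.29 for Cdk11b, 1.77 for Fam192a and 1.85 for Acadsb.

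Genes outside the 12 largest in each direction are described here after their values were seen. Cd82 and Cd81, tetraspanins that organise membrane proteins, moved oppositely: Cd82 held 266.4, 338.1 and 267.8 normalised CPM after PBS, against 95.7 and 119.0 untreated (log2 1.44), and Cd81 held 3163, 3997 and 2831, against 6179 and 7957 (log2 -1.09). The transcription factor gene Batf3 had 56 counts in the PBS libraries and 1 in the untreated ones, a plain ratio of 18.4 with a counting interval of 3.16 to 738. Among genes of higher level, Sdcbp, which encodes the exosome adaptor syntenin, rose by 1.14 (2401, 2375 and 2139 normalised CPM after PBS, against 1105 and 991.7 untreated). Msn, the actin linker moesin, rose by 1.16. The changes of Cd81, Sdcbp and Msn were among the smaller ones called, at levels far above most other called genes. The calls of Cd82, Cd81, Sdcbp and Msn held in 7, 7, 10 and 9 of the 18 alternatives. That of Batf3 held in 9 of the 17 that gave it an adjusted p.

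Genes of the endoplasmic reticulum and lysosome among the falls were also named after their values were seen. Fkbp2, a prolyl isomerase, held 41.3, 56.3 and 59.2 normalised CPM after PBS, against 243.0 and 269.7 untreated. Ganab, the glucosidase that trims new glycoproteins, held 71.3, 68.4 and 56.1 after PBS, against 309.3 and 245.9 untreated. The mannose 6-phosphate receptor gene M6pr, which routes enzymes to lysosomes, held 356.4, 619.8 and 348.8 after PBS, against 1635 and 1618 untreated. The log2 changes were -2.28, -2.09 and -1.88. With Arsa, which encodes the lysosomal enzyme arylsulfatase A (-2.14), Bin1, a membrane-bending protein (-2.27), and the transporter gene Slc10a3 (-2.48), they belong to the 11 genes called without either untreated library; the others are Med13, Dock8, Sipa1, Ly86 and Extl3. Hsp90b1, the endoplasmic Hsp90, fell by 1.83. The lipid handling genes Abcg1 and Lrp1 fell by 1.69 and 1.67. Without untreated replicate 2 the log2 changes of Hsp90b1, Abcg1 and Lrp1 were -1.54, -1.61 and -0.94. Their calls held in 13, 13 and 10 of the 18 alternatives.

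Most microglial genes did not pass the test. Of 25 microglial identity genes tested none was called higher and 2 were called lower, Ly86 and Tgfbr1, beside 0.548% and 1.47% of all genes. The list median was -0.26 beside 0.03 over all genes. There were 9 at an unadjusted p under 0.05, beside 19.3% of all genes tested. DESeq2 called 6, beside 4.58%, and limma-voom 2, beside 1.45%. Every PBS value lay below both untreated values in 8 and above them in 4, beside 16.7% and 18.9% of all genes tested. Tgfbr1, the type I TGF-beta receptor, held 949.3, 1288 and 722.4 normalised CPM after PBS, against 2018 and 3031 untreated (log2 -1.36, SE 0.32, adjusted p = 0.0481). That call ended when a PBS library, an LPS library or untreated replicate 2 was left out (adjusted p = 0.0560 to 0.285; log2 -1.03 without untreated replicate 2). Its partner receptor Tgfbr2 had 1208, 1284 and 1034 after PBS, against 1186 and 888.5 untreated (log2 0.18, adjusted p = 0.734), and no other of 11 TGF-beta genes passed. The driver gene Cx3cr1 had 1550, 1014 and 949.7 after PBS, against 935.3 and 1888 untreated (log2 -0.27, SE 0.32, adjusted p = 0.679). Ctss, a cathepsin abundant in microglia, had 14085, 15121 and 13287 after PBS, against 13875 and 15764 untreated.

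DESeq2, which made more calls, added 4 microglial identity genes. Selplg, the ligand of P-selectin, had 1066, 1268 and 906.1 normalised CPM after PBS, against 2121 and 2031 untreated (log2 -0.94; adjusted p = 0.0588 in edgeR and 0.00151 in DESeq2). Gpr34, a lysophosphatidylserine receptor, and Sparc, a matrix protein, had log2 changes of -0.85 and -0.77 (adjusted p = 0.0970 and 0.121 in edgeR, 0.0187 and 0.0310 in DESeq2). Tmem119, a membrane protein that marks microglia, differed the other way, with 1261, 1340 and 1093 after PBS, against 692.3 and 809.2 untreated (log2 0.71; adjusted p = 0.139 in edgeR and 0.0493 in DESeq2). In all 4 genes the groups did not overlap.

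Genes of the activation lists gave no call in edgeR, apart from 1 antigen presentation gene. None of 10 complement genes, 19 disease-associated microglia genes, 18 interferon-stimulated genes, 19 NF-kB and cytokine genes or 24 lysosomal cathepsin and membrane protein genes was called; their medians were -0.34, -0.20, -0.28, 0.43 and 0.13. At an unadjusted p under 0.05 they numbered 3, 4, 4, 3 and 4, beside 19.3% of all genes tested. DESeq2 called 1 gene of each list and limma-voom none. Those given here are the tetraspanin Cd9 (log2 -1.40), the interferon-induced Ifi27l2a (-1.74) and the LPS receptor Tlr4 (-1.91), and, higher after PBS, the lysosomal membrane protein Laptm4a (0.88). Tlr4 had 26.3, 56.3 and 46.7 normalised CPM after PBS, against 58.9 and 269.7 untreated, so untreated replicate 2 again lay far above the other 4 libraries. Cd9 had 1385, 1650 and 1081 after PBS, against 1569 and 5672 untreated, so its groups overlapped and only untreated replicate 2 lay above the PBS values. Laptm4a had 709.1, 615.8 and 604.1 after PBS, against 316.7 and 380.8 untreated. C1qc, a chain of the complement initiator C1q, had 15856, 15515 and 13007 normalised CPM after PBS, against 13875 and 7791 untreated (log2 0.45, adjusted p = 0.375). Tyrobp, an adaptor of activating receptors, had 2619, 2367 and 3488 after PBS, against 4839 and 1833 untreated. Of 13 antigen presentation genes 1 was called lower, H2-M3, a nonclassical class I gene (log2 -1.77, adjusted p = 0.0319; -1.41 without untreated replicate 2, adjusted p = 0.244), and the abundant class I gene H2-K1 had 2221, 2045 and 2152 after PBS, against 2114 and 825.1 untreated. For C1qc, Tyrobp and H2-K1 the untreated libraries lay farther from each other than the PBS libraries did.

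Genes that respond to handling and stress hormones also gave no call in edgeR. Of 15 immediate early genes tested none passed and the median was 0.19, and of 10 glucocorticoid-induced genes none passed and the median was 0.08. At an unadjusted p under 0.05 there were 3 and 2, beside 19.3% of all genes tested. DESeq2 called 2 immediate early genes and no glucocorticoid gene, beside 4.58% of all genes tested, and limma-voom called none. These were Junb, a subunit of the transcription factor AP-1, and Zfp36, which destabilises cytokine mRNAs. Junb had 198.9, 173.1 and 211.7 normalised CPM after PBS, against 73.6 and 71.4 untreated (log2 1.42; adjusted p = 0.0538 in edgeR and 0.0310 in DESeq2). Zfp36 had 367.7, 326.0 and 277.1 after PBS, against 162.0 and 87.3 untreated (log2 1.36; adjusted p = 0.0700 in edgeR and 0.0236 in DESeq2). In both genes every PBS value lay above both untreated values. Rhob, an immediate early GTPase gene, had 3992, 5892 and 3771 after PBS, against 4316 and 1864 untreated. Per1, a clock gene that glucocorticoids induce, had 146.3, 901.5 and 71.6 after PBS, against 1701 and 364.9 untreated (log2 -1.49, SE 0.96, adjusted p = 0.405). It varied over 10-fold within the PBS libraries, and the groups overlapped. The 5 circadian clock genes tested gave no call either in any of the 3 tools, with a median of -0.28. Of these 5, 1 had an unadjusted p under 0.05, beside 19.3% of all genes tested. Of 9 heat shock chaperones Hspa8 was the 1 called; Hsp90ab1, a cytosolic Hsp90, had 1448, 1851 and 1423 after PBS, against 780.7 and 618.8 untreated and just missed the threshold (log2 1.17, adjusted p = 0.0502), which it passed in DESeq2 (0.00287).

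Calls of the housekeeping lists are to be read beside the 0.548% of all genes tested called higher and the 1.47% called lower. Of 54 cytosolic ribosomal protein genes tested none was called higher and 3 were called lower, among them Rpsa and Rpl34 (log2 -1.39 and -1.64). The median was -0.10, and 9 of the 54 had an unadjusted p under 0.05, beside 19.3% of all genes tested. Rpl34 had the same count in every library as its annotated copy Rpl34-ps1, so the pair counts as 1 observation among the 75. Without untreated replicate 2 the change of Rpsa was -1.35 (adjusted p = 0.0911) and that of Rpl34 was -0.83 (adjusted p = 0.484). DESeq2 called 7 of the 54, among them Rpl12, Rpl13a, Rpl21 and Rps3, all with negative changes (log2 -1.81, -1.73, -1.73 and -0.84), and limma-voom called 2. None of 28 mitochondrial ribosomal, 25 proteasome, 31 chromatin, 28 SR and hnRNP splicing, 13 RAF, RAS and MAP kinase, 10 cell cycle, 7 glycolysis or 3 cholesterol synthesis genes passed, with medians of -0.32, 0.39, 0.04, 0.12, -0.27, -0.28, 0.65 and 0.19. At an unadjusted p under 0.05 they numbered 5, 6, 2, 10, 7, 0, 2 and 0, beside 19.3% of all genes tested; DESeq2 called 1, the splicing factor Hnrnpm (log2 1.33; 270.1, 241.5 and 264.7 normalised CPM after PBS, against 103.1 and 103.1 untreated), and limma-voom none. Of 60 respiratory chain genes Cox6b1 was the 1 called (log2 -1.52; -0.91 without untreated replicate 2, adjusted p = 0.416), with a median of 0.05; DESeq2 also called Atp5h (log2 -1.52) and limma-voom called none. Of 17 thymosin and actin genes Cfl1 and Arpc1b were called lower, Arpc1b with a log2 change of -1.49 (-0.84 without untreated replicate 2, adjusted p = 0.348), and the median was 0.10. DESeq2 and limma-voom also called Arpc5, a subunit of the actin-nucleating Arp2/3 complex, in the other direction (log2 1.27, adjusted p = 0.0550 in edgeR). It had 814.2, 1099 and 850.1 normalised CPM after PBS, against 493.4 and 269.7 untreated. Araf, the RAF kinase named in the title of the series, had 67.5, 44.3 and 93.4 normalised CPM after PBS, against 103.1 and 126.9 untreated (log2 -0.72, SE 0.37, adjusted p = 0.296).

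The 3 tested genes of cytoplasmic poly(A)-binding proteins and their regulators, Pabpc1, Paip1 and Paip2, gave no call in edgeR or limma-voom. Of these 3, 2 had an unadjusted p under 0.05, beside 19.3% of all genes tested. DESeq2 called Paip2, a repressor of poly(A)-binding protein (log2 -1.18; 210.1, 289.8 and 208.6 normalised CPM after PBS, against 324.0 and 745.7 untreated). Pabpc1 had 75.04, 120.7 and 49.8 normalised CPM after PBS, against 58.9 and 936.1 untreated (log2 -2.61, SE 0.75, adjusted p = 0.0808). Without untreated replicate 2 the log2 change was 0.45. Pfn1, an actin-binding protein, had 10337, 6766 and 12851 after PBS, against 18103 and 1023 untreated, so the untreated libraries lay on both sides of the PBS values.

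Markers of other cells gave no call in edgeR or limma-voom. None of 13 border macrophage genes passed, and their median was -0.77. It was -0.04 without untreated replicate 2, the library with 0.407% of its counts in that list, and -1.20 without untreated replicate 1. At an unadjusted p under 0.05 there were 5, beside 19.3% of all genes tested. DESeq2 called 3, beside 4.58%: the scavenger receptor Cd163, the hyaluronan receptor Lyve1 and the lectin Cd209f (log2 -1.75, -1.99 and -1.51). Lyve1 had 60.0, 92.6 and 59.2 normalised CPM after PBS, against 88.4 and 476.0 untreated, and the groups overlapped. Mrc1, a mannose receptor of border macrophages, had 390.2, 426.6 and 308.3 after PBS, against 405.1 and 912.3 untreated. The 8 pan-neuronal genes tested had a median of 1.59, and the 5 tested without PBS replicate 3 a median of 0.18. Snap25, a synaptic vesicle fusion protein, had 457.7, 378.3 and 2454 after PBS, against 383.0 and 349.1 untreated. None of 7 astrocyte, 4 oligodendrocyte, 3 monocyte and lymphocyte, 2 erythroid or 1 hepatocyte genes passed, with medians of 0.33, -0.21, 0.62, -1.01 and -0.21; no vessel gene had enough counts to test. At an unadjusted p under 0.05 there were 4 pan-neuronal, 1 oligodendrocyte and 1 monocyte or lymphocyte genes, beside 19.3% of all genes tested. Apart from the border macrophage genes, DESeq2 called none. The 2 erythroid genes, Hbb-bs and Hbb-b1, had identical counts in every library.

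**Figure D4:**
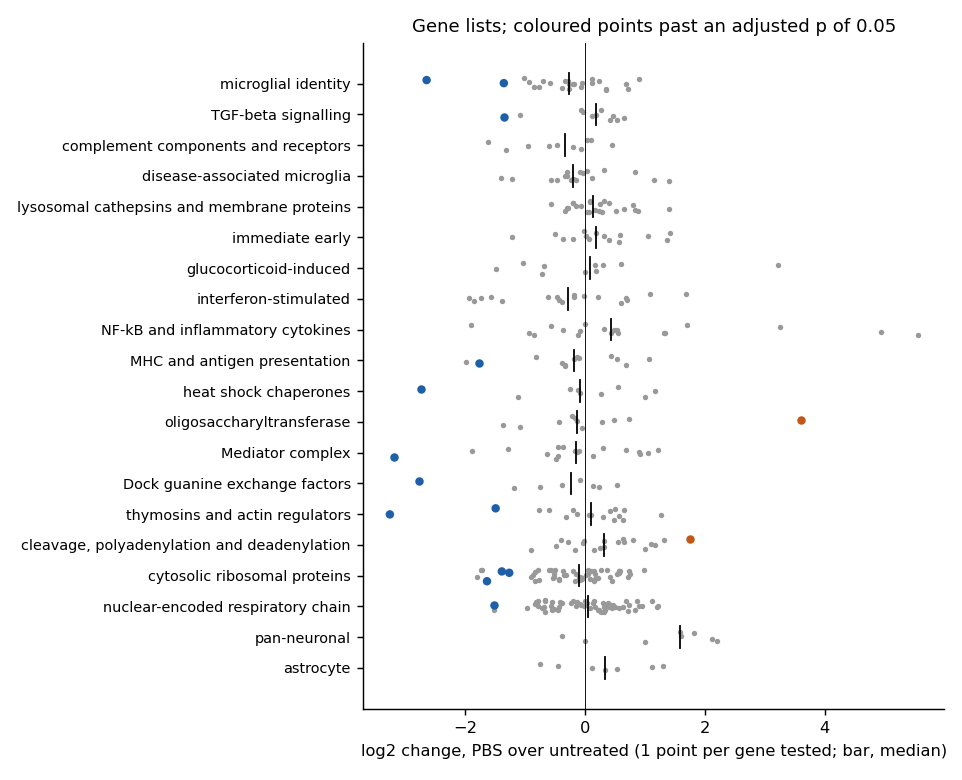
The log2 change of PBS over untreated for each tested gene of 20 lists, with 1 list per row, 1 point per gene and a bar at the list median; coloured points passed an adjusted p of 0.05, orange higher and blue lower after PBS. Most points of every list are grey, and single genes such as Med13, Dock8 and Tmem258 stand far from the rest of their lists.

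The called genes spanned a median of 14732.5 bases for those higher and 18199 for those lower, against 25694 over all genes tested. All 28 higher genes and 73 of the 75 lower genes had reads in each of the 3 RNA-seq libraries of isolated microglia. These libraries came from PBS-treated wild-type mice, a separate assay of other mice. So did 5004 of the 5082 tested genes matched to that assay have reads in each, and the counts do not set the called genes apart. Untreated replicate 2 was farther from the PBS mean than untreated replicate 1 in 21 of the 28 and 56 of the 75, compared with 3217 of all 5112 genes tested.

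**Figure D5:**
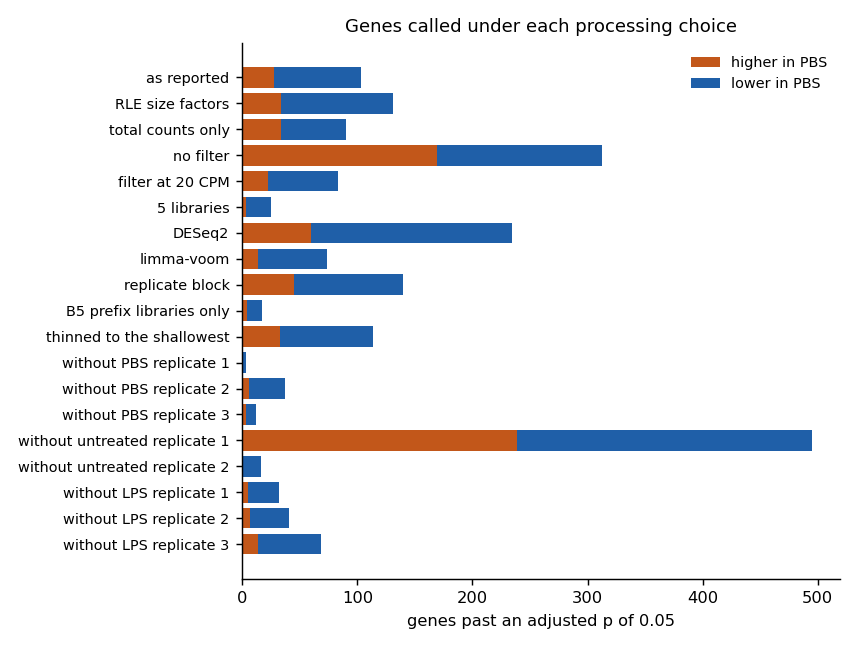
Genes past an adjusted p of 0.05 under the reported fit and 18 alternatives, stacked as higher (orange) and lower (blue) after PBS. The bars run between 3 calls without PBS replicate 1 and 495 calls without untreated replicate 1, beside 103 as reported.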

How the data were processed

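For each library the authors deposited whole-number counts per gene, without normalisation. Per the submitters' processing notes, cutadapt, Novoalign and the mm10 build were used for PAPERCLIP; their versions, duplicate collapse, read assignment and strand are not stated there, so overlapping genes are uncertain. Per the labels' protocols, linkers carry a 7-base random barcode.

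The 8 Cx3cr1-Cre libraries were fitted with edgeR 4.0.16 quasi-likelihood (R 4.3.3), after filterByExpr and TMM scaling, and p-values were adjusted over the whole table by Benjamini-Hochberg; an adjusted p is from this test where no other tool is named. Normalised CPM are counts per TMM-scaled total and plain CPM counts per total, both scaled to 1000000. SE is that of the log2 change. The fit was tested on simulated data that gave all genes the same spread and held no outlying library. That test therefore does not cover a library set apart as untreated replicate 2 was. At these totals, 1 untreated count is 7 to 8 normalised CPM, so low genes are imprecise.

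The genes and the 36 lists were chosen with earlier results of these data known. The named genes are Med13, Dock8, Tmem258, Cx3cr1, Pabpc1, Tgfbr1 and Araf; the 12 largest changes in each direction among called genes whose groups do not overlap, with a mean of at least 50 normalised CPM and no predicted genes; and, from each list, up to 4 called members and the 2 with the highest mean. A part of them is given, and a few genes are not reported here. Alternatives were RLE scaling, total counts, no filter, 20 CPM in at least 2 libraries, the 5 libraries alone, DESeq2 1.42.0, limma-voom (limma 3.58.1), a replicate block, libraries without PBS and LPS replicate 3, thinning to 133456 counts, and leaving out each library. Counting intervals are exact and cover counting error only. Tagged cortical libraries served only for levels given beside a gene. The RNA-seq of isolated microglia (STAR, per the submitters' processing notes) served only to count genes with reads. Positions come from RefSeq for GRCm38.p6.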

Additional observations from a re-analysis of the deposited data

How the results depend on the processing

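The 103 calls (28 higher, 75 lower after PBS) depended on the libraries more than on the scaling. With no filter there were 313 (169 higher, 144 lower), with DESeq2 234 (60 and 174), with the 5 libraries alone 25 (3 and 22) and without replicate 3 of PBS and LPS 17 (4 and 13). Limma-voom gave 74, of which 14 were higher. Leaving out 1 library gave 3 to 495 calls, with 0 to 239 higher and 3 to 256 lower; where this left 1 untreated library, it was assumed to vary like the other groups. RLE scaling, a filter at 20 CPM and thinning gave 131, 83 and 114. Lower genes made up 72.8% of calls as reported, 62.2% with total counts only, which moved the median of all genes to 0.11, and 46% with no filter. The replicate block gave 140 calls (45 higher, 95 lower). Same-numbered libraries deviated together at r = 0.0466 and 0.157, and the labels state no shared day or litter, so the numbers were not taken to pair the libraries. Of the 32 named genes past the threshold, none changed direction, which was largely fixed by their selection on these same values. Over the alternatives in which each was tested, these genes kept the call 348 times and lost it 227 times. The causes were not tested. Depth limits the untreated side, with at most 154959 counts per library.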
